A study of Homo sapiens with 6 samples.

Results

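The genes examined here were 5 that mark smooth muscle (ACTA2, TAGLN, MYH11, CNN1 and MYOCD) and 3 that mark the epicardium (WT1, TCF21 and ALDH1A2). Each was represented by a fixed window of hg19 around the gene, and a called ATAC-seq peak belonged to a window when its midpoint lay in it. ATAC-seq uses the Tn5 transposase to cut and tag open DNA, so that a called peak marks accessible chromatin. Peaks from different libraries that shared 1 bp or more were joined into regions, and the windows held 81 regions, 53 at the smooth muscle genes and 28 at the epicardial genes, out of 157560 in the genome. The cells were ventricular-like cardiomyocytes at day 15 of differentiation from H9, an established human embryonic stem cell line. There were 3 control libraries and 3 libraries with knockdown of ZNF436, a gene for a KRAB zinc finger protein. The labels describe the replicates as separate differentiations of this single line. How the knockdown was made, and whether cardiomyocytes were purified, is not given in the sources used here.

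Much of the smooth muscle of the coronary vessels and part of the cardiac fibroblasts descend from the epicardium, the cell layer that covers the heart. Serum response factor binds CArG boxes in the promoters of contractile genes, and its coactivator myocardin, the product of MYOCD, drives the smooth muscle programme. Myocardin is also made in cardiomyocytes, and immature cardiomyocytes make ACTA2, TAGLN and CNN1, so these windows are not specific to smooth muscle. WT1 and TCF21 are transcription factors of the epicardium and ALDH1A2 makes retinoic acid there. The lists come from bulk cultures, in which more cells of a type and more open chromatin per cell cannot be told apart. The windows may also hold neighbouring genes in whole or in part, and the neighbours named next need not be all of them. By gene order in RefSeq, ACTA2 lies beside STAMBPL1 and FAS, TAGLN beside SIDT2 and PCSK7, MYH11 beside NDE1, and CNN1 beside ECSIT and ELOF1, while MYOCD, WT1, TCF21 and ALDH1A2 have the noncoding neighbours MYOCD-AS1, WT1-AS, TARID and ALDH1A2-AS1, so a peak could not be assigned to a single gene. No annotation of hg19 was used here, so accessibility at cardiomyocyte marker genes was not analysed here.

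RefSeq promoter sequences on GRCh38.p14 were at hand for 5 of the 8 genes (ACTA2, CNN1, WT1, TCF21 and ALDH1A2). The 4 below show the promoters of 2 contractile and 2 epicardial genes, with the only CArG-like matches found. Each is the 250 bases before a transcription start, read 5′ to 3′ on the gene's strand. Capitals mark matches to the CArG box in which at most 1 of the 6 inner letters departs from the consensus. The pattern is its own reverse complement, so both strands were covered.
ACTA2, second of the 2 listed starts, chr10:88952774-88953023, minus strand: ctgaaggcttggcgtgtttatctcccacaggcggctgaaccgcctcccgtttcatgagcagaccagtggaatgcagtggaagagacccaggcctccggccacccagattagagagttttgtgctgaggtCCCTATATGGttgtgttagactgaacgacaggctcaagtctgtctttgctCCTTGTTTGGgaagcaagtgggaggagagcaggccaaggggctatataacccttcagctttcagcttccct
CNN1, chr19:11538601-11538850, plus strand: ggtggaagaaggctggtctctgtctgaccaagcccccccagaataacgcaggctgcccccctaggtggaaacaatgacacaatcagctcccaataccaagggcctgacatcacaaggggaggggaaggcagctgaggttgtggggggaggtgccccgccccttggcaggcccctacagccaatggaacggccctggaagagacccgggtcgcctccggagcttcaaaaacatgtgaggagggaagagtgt
TCF21, chr6:133888863-133889112, plus strand: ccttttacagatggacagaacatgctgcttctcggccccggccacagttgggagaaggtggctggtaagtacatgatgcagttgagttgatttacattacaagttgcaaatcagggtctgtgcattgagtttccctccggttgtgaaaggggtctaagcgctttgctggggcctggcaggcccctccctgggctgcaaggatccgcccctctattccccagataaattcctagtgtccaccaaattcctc
ALDH1A2, first of the 2 listed starts, chr15:58065712-58065961, minus strand: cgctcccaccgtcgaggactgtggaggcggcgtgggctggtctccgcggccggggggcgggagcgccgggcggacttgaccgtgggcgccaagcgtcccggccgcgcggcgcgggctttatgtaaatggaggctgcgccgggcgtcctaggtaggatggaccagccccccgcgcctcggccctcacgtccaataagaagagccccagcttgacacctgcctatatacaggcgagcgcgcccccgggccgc

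Among the 10 promoter entries of these genes only that of the second ACTA2 start held such matches. They were CCCTATATGG, beginning 121 bases before the start, and CCTTGTTTGG, beginning 71 bases before it. Of all 34796 promoter sequences of this length, 7.04% held at least 1 such match, and 1.17% held a CArG box without a mismatch. The number of CG dinucleotides varied between the starts of a gene, beside a median of 11 over all promoters. ALDH1A2 had 33 at its first start and 1 at the other, WT1 had 3 to 19 over its 4 starts, and ACTA2 had 17 at its first start and 6 at the second. CNN1 had 6 and TCF21 had 5. The starts were not placed on hg19, so these sequences describe the genes and say nothing of where a peak lay.

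The lists differed in length. In order of replicate, there were 50719, 53662 and 68342 peaks in control and 115864, 102454 and 87871 in knockdown, a ratio of means of 1.773 ± 0.379 (SD, n = 3 each). Sequencing depth is unknown. Each window was therefore described by its peak number, by its peaks per 10000 peaks of the list (its share of the list), and by its number in lists of equal length, cut to the 50719 highest scores. The share was tested with limma over the 8 windows and all other 100 kb tiles with a mean of at least 2 peaks, 13431 in all. Of these, 1.6% were higher and 4.27% lower in knockdown at a Benjamini-Hochberg adjusted p under 0.05. With a pseudocount in proportion to list length, an alternative added after the data were seen, 1.22% were higher and 2.38% lower. Of the 8 windows, 0 passed with either pseudocount. An unadjusted limma p under 0.05 was found for 3 windows with a higher share (MYH11, WT1 and TCF21) and 1 with a lower share (CNN1), against 9.67% and 16.7% of all windows and tiles. The exact permutation test of 3 against 3 libraries cannot go below p = 0.1, so 0 windows could pass 0.05 by it.

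The sets differed in how many sites were open in every library. At the smooth muscle genes 16 of 53 regions (30.2%) were called in all 6 libraries, and at the epicardial genes 1 of 28 (3.57%), against 18.2% of all regions in the genome. Without control replicate 1 or 2, when fewer libraries had to hold a peak, the epicardial count was 3 or 5 and the smooth muscle count 19 or 17. The share of all regions under that looser condition was not computed, so these counts cannot be set against the 18.2%. With all 6 libraries, MYH11 (1 of 7) and TAGLN (2 of 14) among the smooth muscle genes were at 14.3%, below the genome's 18.2%. The smooth muscle windows together held 20, 25 and 29 peaks in control and 41, 36 and 36 in knockdown. Every knockdown library was above every control library, and the ratio of means was 1.527 ± 0.303 (SD, n = 3 each), below the 1.773 of the whole lists. As a share of the list the ratio was 0.868 ± 0.106, and in lists of equal length it was 1.058 ± 0.14, with 20, 23 and 26 peaks in control and 24, 24 and 25 in knockdown. The epicardial windows together held 5, 4 and 15 peaks in control and 23, 20 and 20 in knockdown. The 3 knockdown libraries were alike, whereas control replicate 3 lay between them and the other 2 controls. The ratio of means was 2.625 ± 2.008 with all libraries. As a share of the list it was 1.583 ± 0.949 and in lists of equal length 1.579 ± 0.801, and in both the groups overlapped. Without control replicate 3 the ratio of peak numbers was 4.667 ± 0.828, and without control replicate 2 it was 2.1 ± 1.495. Without control replicate 3 the whole lists had a ratio of 1.956 and the smooth muscle windows 1.674 ± 0.293. Without control replicate 2 these were 1.714 and 1.537 ± 0.416.

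**Figure D1:**
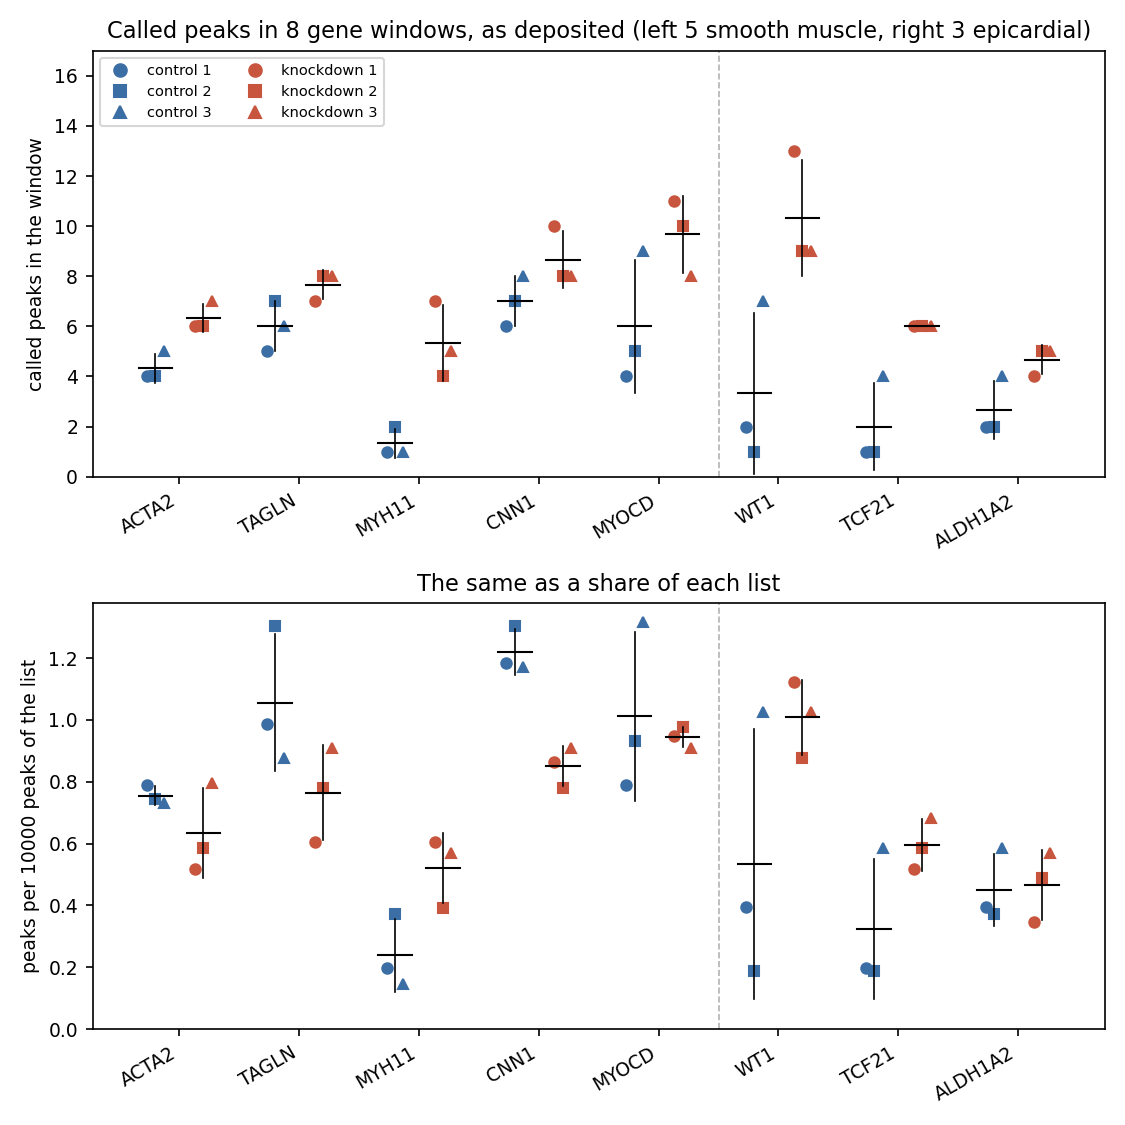
Peaks in each gene window by library, as numbers (top) and per 10000 peaks of the list (bottom); blue marks control and red knockdown, symbols mark the replicate, and black bars give mean ± SD (n = 3). Peak numbers of the groups did not overlap for ACTA2, MYH11, WT1 and TCF21. In number, control replicate 3 (blue triangle), the longest control list, is the highest control at all 3 epicardial genes and at ACTA2, CNN1 and MYOCD. As a share it is the highest control at the 3 epicardial genes and at MYOCD.

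MYOCD encodes the coactivator at the head of the smooth muscle programme, and its window (chr17:12550001-12690000) was already open in control cells. It held 4, 5 and 9 peaks in control and 11, 10 and 8 in knockdown, so the groups overlapped through control replicate 3 (exact permutation test, two-sided, p = 0.2). The share was 1.012 ± 0.273 peaks per 10000 in control and 0.945 ± 0.033 in knockdown (mean ± SD, 3 libraries each). The change of the share was -0.12 ± 0.21 on the log2 scale (SE; limma adjusted p = 0.747), and its sign turned to 0.06 without control replicate 3. Of the 12 regions, 4 were called in all 6 libraries. The one that ranked highest was chr17:12633933-12634763, with score percentiles of 89.3, 90.5 and 95.5 within the control lists and 99.0, 99.2 and 96.2 within the knockdown lists. The score is the authors' value per peak, and percentiles of lists of different length show no change. The other shared regions were chr17:12568645-12569681, chr17:12570302-12571363 and chr17:12638028-12638982. Of the remaining regions, 2 had peaks in each knockdown library and, of the controls, in replicate 3 alone, at chr17:12619484-12619898 and chr17:12635201-12635976. A peak in all 3 knockdown libraries and in 0 controls was found at chr17:12630455-12630951 alone, with percentiles of 10.1, 41.6 and 0.883, near the bottom of 2 of the 3 lists. A further 3 regions were called in a single knockdown library and in 0 controls.

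ACTA2 encodes smooth muscle alpha-actin, the thin filament protein of contractile smooth muscle. Its window (chr10:90670001-90770000) held 4, 4 and 5 peaks in control and 6, 6 and 7 in knockdown. The groups did not overlap (exact permutation test, two-sided, p = 0.1), as at 4 of the 8 windows (ACTA2, MYH11, WT1 and TCF21) and at 44.4% of all windows and tiles. At 0 of the 8 windows, and at 0.32% of windows and tiles, did every knockdown library have fewer peaks than any control library. The share went the other way, with 0.755 ± 0.03 peaks per 10000 in control and 0.633 ± 0.145 in knockdown (mean ± SD, 3 libraries each; log2 change -0.33 ± 0.24 SE, limma adjusted p = 0.396). The lists of equal length held 4, 4 and 5 peaks in control and 4, 4 and 4 in knockdown, so the additional knockdown peaks had scores too low to enter them. Of the 9 regions, 4 were called in all 6 libraries, and the other 5 were called in 1 or 2 knockdown libraries, none of them in all 3. The shared region that ranked highest was chr10:90710995-90712008, with percentiles of 76.6, 78.5 and 83.6 in control and 87.8, 83.0 and 85.3 in knockdown. A second shared region followed it at chr10:90712317-90712853. The other two lay at chr10:90692319-90692853 and chr10:90750330-90751648.

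MYH11 encodes the smooth muscle myosin heavy chain and is the most specific of these genes for mature smooth muscle. Its window (chr16:15780001-15970000) held 1, 2 and 1 peaks in control and 7, 4 and 5 in knockdown. Control cells had a single site there that all 3 libraries called, and the groups did not overlap in number (exact permutation test, two-sided, p = 0.1). MYH11 was the only smooth muscle window whose share was higher in every knockdown than in any control library, with 0.239 ± 0.119 against 0.521 ± 0.115 peaks per 10000 (SD, n = 3 each), a separation seen in 14.9% of windows and tiles. The log2 change of the share was 0.85 ± 0.33 (SE; limma adjusted p = 0.125), and without scaling to list length it was 1.68 ± 0.33 (limma adjusted p = 0.00674), where 43.3% of all windows and tiles were higher and 0.253% lower. In that fit 3 of the 8 windows (MYH11, WT1 and TCF21) were higher and 0 lower. The lists of equal length held 1, 2 and 1 peaks in control and 3, 2 and 4 in knockdown, so that the groups met at 2. The 1 Mb bin around the window went the other way, with a log2 change of -0.43 ± 0.16 (SE; limma adjusted p = 0.0519).

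The site shared by all libraries, chr16:15905371-15906376, stood among the strongest of each list, with percentiles of 92.4, 91.1 and 94.3 in control and 98.9, 99.2 and 98.9 in knockdown. Beside it, 2 of the 7 regions of the window had peaks in all 3 knockdown libraries but in 0 controls. They were chr16:15929463-15929694, with percentiles of 73.8, 52.6 and 73.2, and chr16:15952016-15952398, with 44.3, 20.5 and 46.9. Another 2 regions, chr16:15798303-15798735 and chr16:15859850-15860015, were called in knockdown replicates 1 and 3 and in 0 controls, and 1 more in knockdown replicate 1 alone. The longest stretch of the window without a peak in any library ran for 61.1 kb between these 2.

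TAGLN and CNN1 encode actin-binding proteins of the calponin family, and their short windows were the densest in regions. The TAGLN window (chr11:117050001-117100000) held 5, 7 and 6 peaks in control and 7, 8 and 8 in knockdown (exact permutation test, two-sided, p = 0.2). The groups met at 7. Its share was 1.056 ± 0.222 peaks per 10000 in control and 0.765 ± 0.154 in knockdown (mean ± SD, 3 libraries each; log2 change -0.49 ± 0.23 SE, limma adjusted p = 0.19). By covered bases, scaled to those of the list, the change was 0.16 ± 0.20 (SE; limma adjusted p = 0.59), so the direction depended on what was counted. Of its 14 regions, 2 were called in all 6 libraries and 0 in all 3 knockdown libraries without a control. The shared region chr11:117069529-117070907 ranked highest, with percentiles of 88.1, 80.2 and 77.0 in control and 85.0, 89.8 and 87.9 in knockdown. Of the 14, 5 (35.7%) were called in at least 1 control and 0 knockdown libraries, against 10.7% of all regions, and 3 (21.4%) in at least 1 knockdown and 0 control libraries, against 47.7% of all regions. Each of these 8 was called in a single library, other than chr11:117095512-117095814, which was called in control replicates 1 and 2.

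The CNN1 window (chr19:11630001-11680000) held 6, 7 and 8 peaks in control and 10, 8 and 8 in knockdown (exact permutation test, two-sided, p = 0.3). Its share was lower in every knockdown library than in any control library, with 1.219 ± 0.074 peaks per 10000 in control and 0.851 ± 0.066 in knockdown (mean ± SD, 3 libraries each), a separation seen in 15.9% of windows and tiles. The log2 change was -0.54 ± 0.19 (SE; limma adjusted p = 0.0971). In lists of equal length the numbers were 6, 7 and 8 against 7, 7 and 7, a log2 change of 0.01 ± 0.11 (SE). Among the 50719 highest scores of each list the window thus had a mean of 7 peaks in both groups. The 1 Mb bin around CNN1 was lower in knockdown (log2 change -0.53 ± 0.09 SE, limma adjusted p = 0.00127), as were 10% of all such bins. Of the 11 regions, 5 were shared by all libraries, and chr19:11639233-11640523 ranked highest of these, with percentiles of 94.4, 96.1 and 97.9 in control and 98.4, 97.6 and 98.0 in knockdown. The region chr19:11662736-11663173 was called in all 3 knockdown libraries and in 0 controls, with percentiles of 58.1, 41.6 and 31.2.

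**Figure D2:**
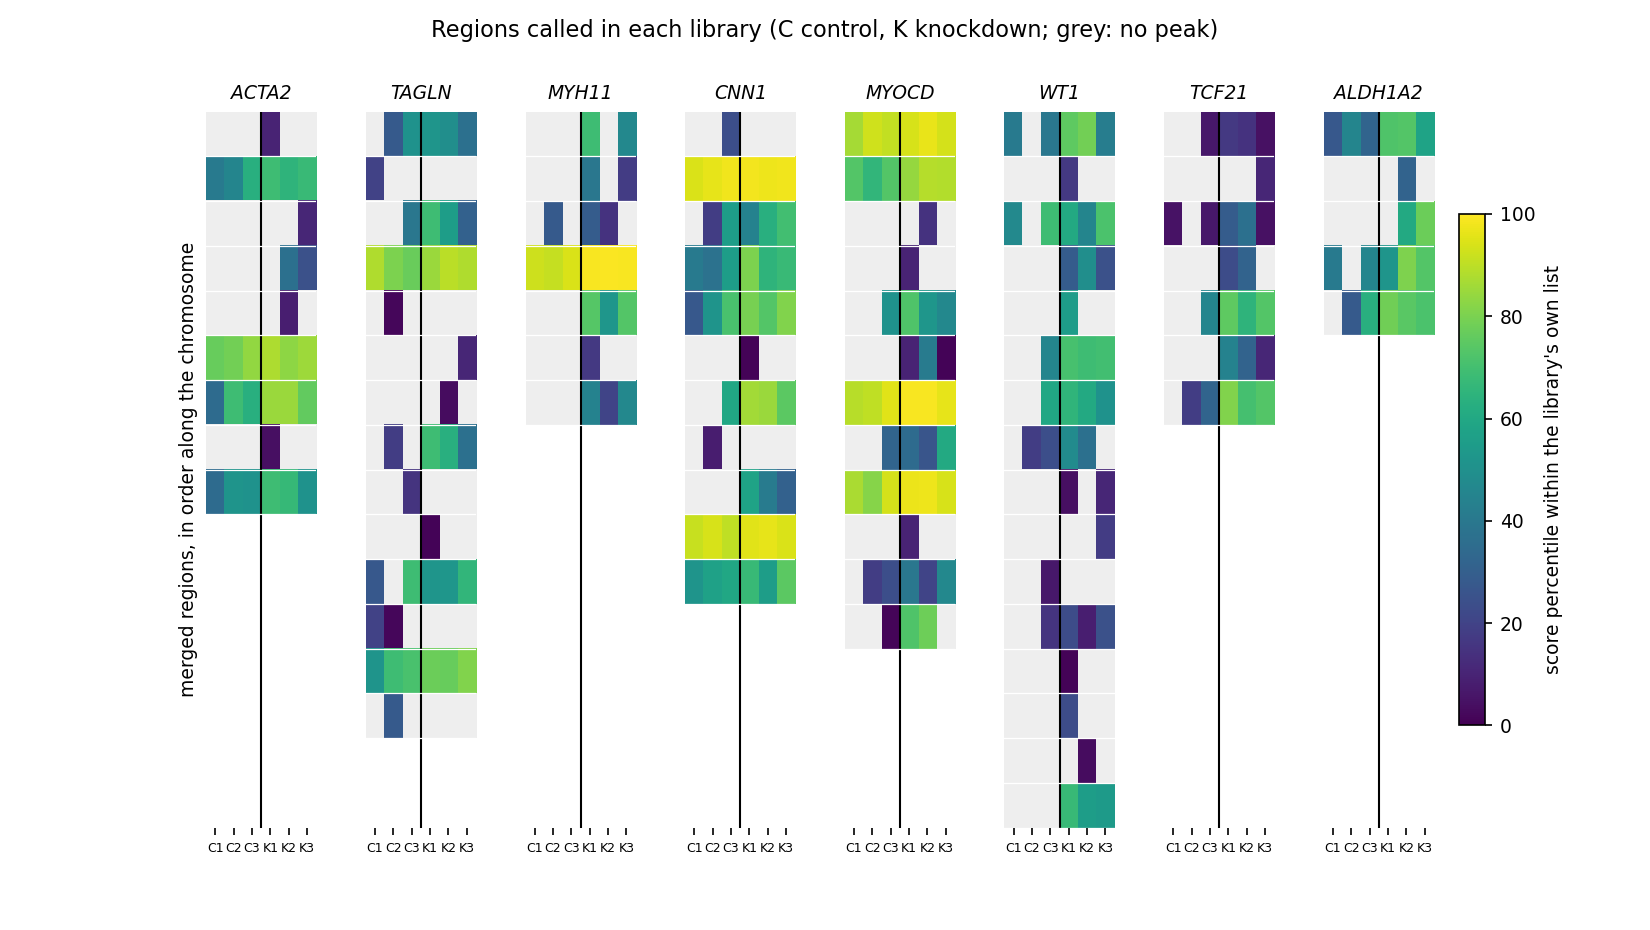
Each row is a merged region of a gene window, in order along the chromosome, and each column a library (C1 to C3 control, K1 to K3 knockdown). Colour gives the percentile of the peak's score within the library's own list and grey means no peak. Rows filled in all 6 columns number 16 at the 5 smooth muscle genes and 1 at the 3 epicardial genes.

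WT1 encodes a zinc finger transcription factor that marks epicardial cells, and its window (chr11:32380001-32480000) held few peaks in 2 of the 3 control libraries. It held 2, 1 and 7 peaks in control and 13, 9 and 9 in knockdown. The groups did not overlap (exact permutation test, two-sided, p = 0.1), but control replicate 3 was nearer to the knockdown libraries than to the other controls. As a share of the list it was level with them, at 0.394, 0.186 and 1.024 peaks per 10000 in control and 1.122, 0.878 and 1.024 in knockdown. The log2 change of the share was 0.98 ± 0.40 (SE; limma adjusted p = 0.152). Without control replicate 3 it was 1.50 ± 0.28 (limma adjusted p = 0.0193), where 4.96% of all windows and tiles were higher and 6.28% lower. Without control replicate 2 it was 0.52 ± 0.30 (limma adjusted p = 0.312), and for the 1 Mb bin around WT1 it was 0.21 ± 0.17 (limma adjusted p = 0.359), near the median of 0.16 over all bins. Of the 8 windows, 2 (WT1 and TCF21) were higher and 0 lower without control replicate 3. With the stronger 50% of each list the WT1 change was 1.84 ± 0.51 (limma adjusted p = 0.0286), where 1.94% of windows and tiles were higher and 16.3% lower. The highest WT1 score percentiles were 47.0, 18.1 and 68.9 in the control lists, in order of replicate. Control replicates 1 and 2 thus had no WT1 peak in the stronger 50%, and their values there came from the pseudocount alone. In lists of equal length the numbers were 2, 1 and 5 in control and 6, 4 and 4 in knockdown, and the groups overlapped through control replicate 3 (log2 change 0.89 ± 0.54 SE, limma adjusted p = 0.441).

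Of the 16 WT1 regions, 0 were called in all 6 libraries and 7 in all 3 knockdown libraries. Control replicate 1 called 2 of these 7, control replicate 2 called 0 and control replicate 3 called 5. The regions chr11:32460401-32460869 and chr11:32404232-32404450 had peaks in all 3 knockdown libraries but in 0 controls, with percentiles of 67.3, 55.6 and 54.6 for the first and 29.3, 49.3 and 24.7 for the second. The regions chr11:32408258-32408733, chr11:32421686-32422236 and chr11:32452259-32452835 were called in each knockdown library and, of the controls, in replicate 3 alone.

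TCF21 encodes a basic helix-loop-helix factor of the epicardium and of the fibroblasts that derive from it. Its window (chr6:134180001-134240000) held 1, 1 and 4 peaks in control and 6, 6 and 6 in knockdown. The groups did not overlap in number (exact permutation test, two-sided, p = 0.1), whereas the share of control replicate 3, 0.585 peaks per 10000, lay within the knockdown range of 0.518 to 0.683. The log2 change of the share was 0.76 ± 0.33 (SE; limma adjusted p = 0.165), and it was 1.16 ± 0.26 without control replicate 3 (limma adjusted p = 0.0299). Without control replicate 2 it was 0.54 ± 0.34 (limma adjusted p = 0.347), and for the 1 Mb bin 0.25 ± 0.13 (limma adjusted p = 0.154). In lists of equal length the window held 1, 1 and 2 peaks in control and 2 in each knockdown library, too few for the test. The only region called in all 3 knockdown libraries and in 0 controls, chr6:134216792-134217071, had percentiles of 44.3, 31.9 and 10.7. The regions chr6:134215966-134216397 and chr6:134237645-134238164 were stronger, at 75.0, 65.1 and 73.2 and at 81.2, 70.5 and 73.2 in the knockdown lists. The first of them was called in control replicate 3 alone of the controls and the second in control replicates 2 and 3.

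ALDH1A2 encodes retinaldehyde dehydrogenase 2, which makes the retinoic acid that the epicardium releases. Its window (chr15:58230001-58600000) is 370 kb long, more than the 112 kb that RefSeq gives for the gene on GRCh38, and had the fewest regions per length, 1.35 per 100 kb. It held 2, 2 and 4 peaks in control and 4, 5 and 5 in knockdown (exact permutation test, two-sided, p = 0.2). The groups met at 4, again through control replicate 3. The share was 0.451 ± 0.117 peaks per 10000 in control and 0.467 ± 0.113 in knockdown (mean ± SD, 3 libraries each; log2 change -0.07 ± 0.28 SE, limma adjusted p = 0.892), level with the median of -0.07 over all windows and tiles. The sign differs from that of the means because a pseudocount of 0.5 peaks weighs more in the shorter control lists, and with a pseudocount in proportion to list length the change was 0.0461 (SE 0.28; limma adjusted p = 0.927). The 1 Mb bin around the window was higher in knockdown (log2 change 0.83 ± 0.22 SE, limma adjusted p = 0.0135), as were 20% of such bins. The only epicardial region called in all 6 libraries was here, at chr15:58357698-58359267, with percentiles of 27.7, 45.3 and 32.3 in control and 72.4, 73.3 and 57.9 in knockdown. Its peaks covered 382 ± 43.6 bases in control and 1016 ± 283 in knockdown (mean ± SD, 3 libraries each).

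**Figure D3:**
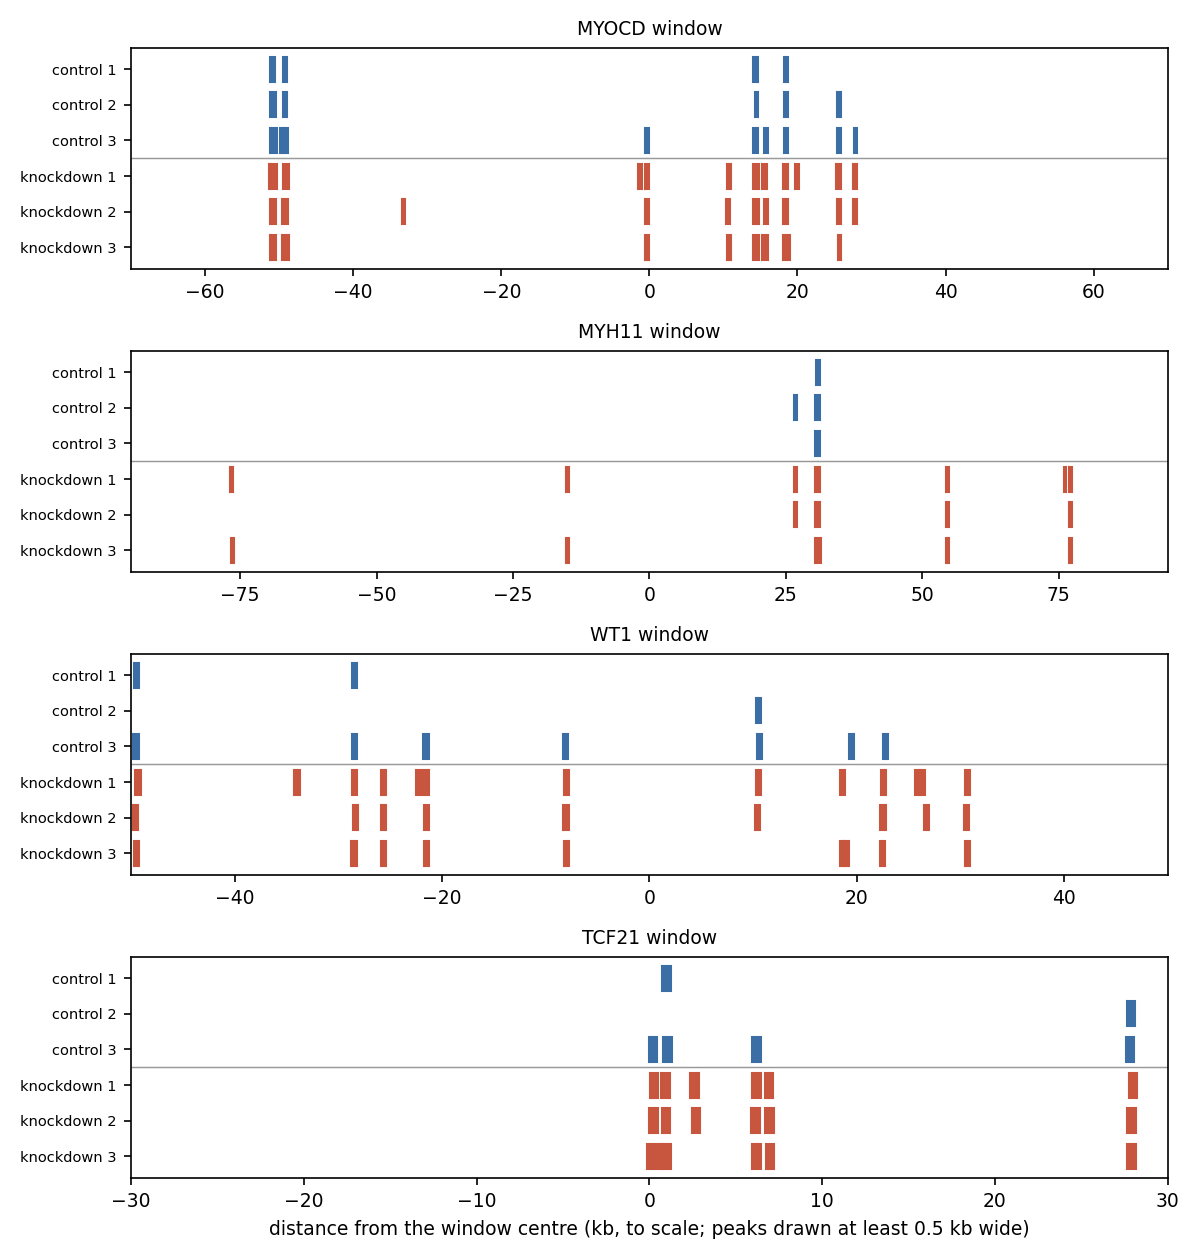
Called peaks by library along 4 windows, in kb from the window centre, with control in blue and knockdown in red; peaks narrower than 0.5 kb are drawn 0.5 kb wide. In the MYOCD window 4 sites run through all 6 rows, in the MYH11 window 1 does, and in the WT1 and TCF21 windows 0 do.

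Few sites separated the groups completely. At the smooth muscle genes 4 of 53 regions (7.55%) and at the epicardial genes 3 of 28 (10.7%) had a peak in each knockdown library but in 0 controls, against 7.72% of all regions. The reverse, a peak in each control but in 0 knockdown libraries, was seen for 0 regions of both sets and for 0.131% of all regions. Regions with more knockdown than control libraries numbered 30 of 53 (56.6%) and 25 of 28 (89.3%), against 65.4% of all regions, and those with fewer numbered 7 (13.2%) and 1 (3.57%), against 12.1%. The 7 knockdown-only regions lay at MYH11 (2), WT1 (2), CNN1, MYOCD and TCF21 (1 each), and 0 lay at ACTA2, TAGLN and ALDH1A2. Without control replicate 3, 8 smooth muscle and 8 epicardial regions met the condition, and 13.5% of all regions did. In lists of equal length 1 region of each set met it, and 3.07% of all regions did.

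The control libraries differed in how many of the knockdown sites they shared. Of the 15 epicardial regions called in all knockdown libraries, control replicates 1 and 2 called 5 (33.3%) and 3 (20%), and control replicate 3 called 12 (80%). Of the 29 such smooth muscle regions the 3 controls called 17 (58.6%), 20 (69%) and 24 (82.8%). Over all 63191 such regions of the genome they called 58.1, 56.9 and 73%. Summed over each set, control replicates 1 and 2 were below the genome's level at the epicardial genes. At the smooth muscle genes control replicate 1 was level with the genome and control replicate 2 was above it. Single genes differed from their set. At ALDH1A2 both controls called 66.7% of 3 regions, at MYH11 all 3 controls called 33.3% of 3, and control replicate 1 called 50% at TAGLN and MYOCD. Regions called in each knockdown library and, of the controls, in replicate 3 alone made up 5 of 28 epicardial and 4 of 53 smooth muscle regions (17.9 and 7.55%), against 5.28% of all regions. This pattern was singled out after the values were seen and was given no test. Control replicate 3 had the longest control list, and the part of list length in this pattern was not tested.

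Peaks at the shared sites covered more bases in knockdown. In every one of the 8 windows the covered bases of the knockdown libraries lay above those of the control libraries, as they did in 82.4% of all windows and tiles. At MYOCD they were 2630 ± 696 in control and 5463 ± 671 in knockdown, and at WT1 825 ± 857 and 3338 ± 566 (SD, n = 3 each). Over the 16 smooth muscle regions called in all 6 libraries the median ratio of covered bases, knockdown to control, was 1.56, and all 16 ratios were above 1. Over all 28749 such regions of the genome the median was 1.37, and 26573 were above 1. The peaks were wider in every knockdown than in any control library at 7 of the 16 (43.8%), against 47.2% in the genome. At ACTA2 this held for 3 of 4 shared regions, among them chr10:90692319-90692853 with 211 ± 57 bases in control and 428 ± 71.9 in knockdown (mean ± SD, 3 libraries each). At CNN1 it held for 0 of 5.

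**Figure D4:**
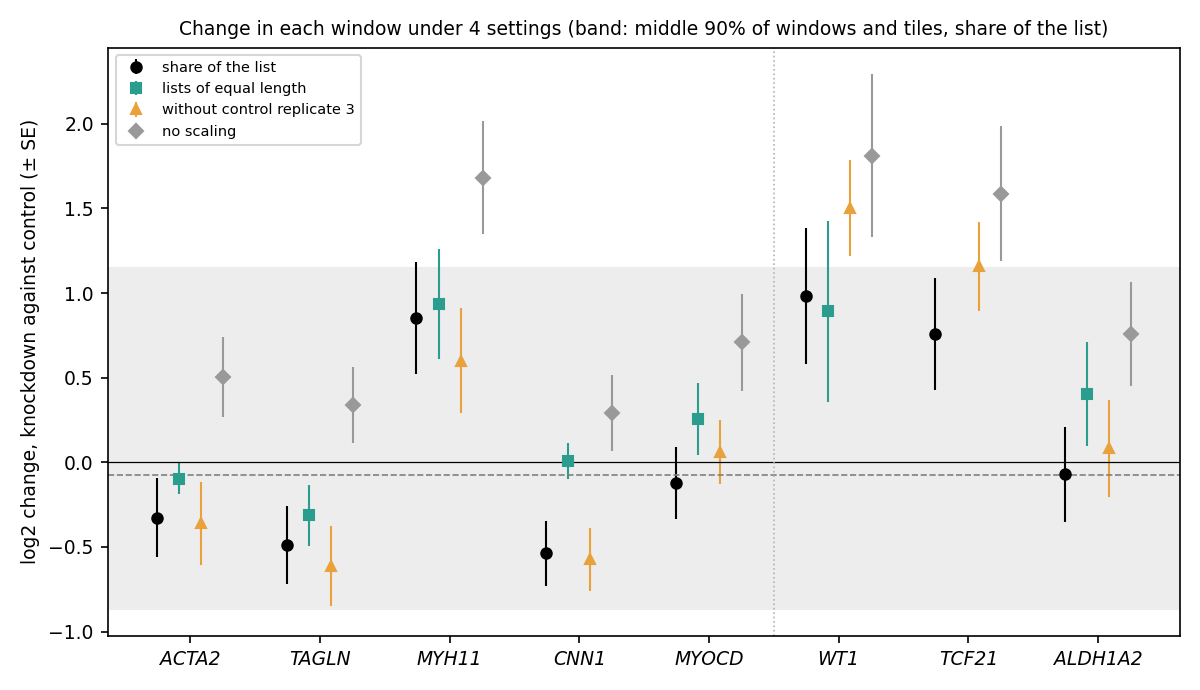
Log2 change of each window, knockdown against control, with its SE, as a share of the list, in lists of equal length, without control replicate 3 and without scaling (4 settings). The grey band spans the middle 90% of all windows and tiles for the share of the list, and all 8 windows lie inside it at that setting; TCF21 had too few peaks for a value in lists of equal length.

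Set against all windows and tiles, the windows were not extreme. The median log2 change of the share was -0.07 over all of them, -0.33 over the 5 smooth muscle windows and 0.76 over the 3 epicardial windows. The smooth muscle windows ran from -0.54 (CNN1) to 0.85 (MYH11) and the epicardial windows from -0.07 (ALDH1A2) to 0.98 (WT1). All 8 lay between the 5th and 95th percentiles of all windows and tiles, which were -0.87 and 1.15. The quotient of the epicardial and smooth muscle ratios was 1.719. A spread of 1.084 (SD, n = 3 each) was propagated from the quotient of epicardial to smooth muscle peaks in each library. It describes libraries and is not an error of the mean. The distance of 1.719 from 1 was smaller than this spread. Without control replicate 3 the quotient was 2.788 and the spread 0.844, and without control replicate 2 they were 1.366 and 0.716.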

How the data were processed

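The data were 6 deposited peak lists, 1 per library (3 control, 3 ZNF436 knockdown). The authors' lists give positions and an integer score per peak, from which only ranks inside each list were taken. The submitters' processing notes name hg19, bedtools 2.30.0 and Bowtie2 2.4.5. Peak names begin with MACS and carry a library's name. Whether reads were shifted for Tn5 or duplicates removed, and the caller's version and threshold, is not given in the sources used here. Since the lists hold no reads, depth is unknown. A longer list can follow from depth or background, and this cannot be told apart from the group.

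Peaks were assigned to windows by midpoint. Their number plus a pseudocount of 0.5, divided by the list's length, entered limma 3.58.1 (R 4.3.3; trended, robust) on the log2 scale, with Benjamini-Hochberg adjustment at 0.05 over the 8 windows and 100 kb tiles of chromosomes 1 to 22 and X. The procedure was run on simulated Poisson numbers, whose expected values differed between libraries only by list length and by known added changes. These changes were placed only in tiles with a mean of at least 4 peaks. The simulation does not show how the test behaves at windows with fewer peaks, or when libraries differ in other ways. Sums over windows got no test. Regions were placed by their own midpoint. The rest used Python 3.11.15, pandas 2.3.3, numpy 2.4.6 and scipy 1.17.1. All 8 windows were named, with their highest ranked shared region and up to 3 regions called in 1 group only. The members and lists were chosen with earlier results of these data known. Other regions were named after their values were seen. Planned gene lists that need an hg19 annotation were not analysed here.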

Additional observations from a re-analysis of the deposited data

How the results depend on the processing

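As a share of the list, 0 windows were higher and 0 lower in knockdown (limma adjusted p under 0.05). There were 3 higher without scaling (MYH11, WT1 and TCF21), 1 higher with the stronger 50% of each list (WT1), 1 higher and 1 lower in 1 Mb bins (ALDH1A2 and CNN1), and 0 to 2 higher when 1 library was left out. The 2 were WT1 and TCF21 without control replicate 3. Scaling to the median ratio, lists of equal length, a pseudocount of 1, other filters and covered bases called 0 windows. Log2 changes took the other sign without scaling at ACTA2 (0.50), TAGLN (0.34), CNN1 (0.29), MYOCD (0.71) and ALDH1A2 (0.76), where the median of all windows and tiles was also 0.76. They did so in 1 Mb bins at ACTA2 (0.38), MYH11 (-0.43), MYOCD (0.24) and ALDH1A2 (0.83), and by covered bases at TAGLN (0.16), MYOCD (0.16) and ALDH1A2 (0.44). They did so in lists of equal length at CNN1 (0.0086), MYOCD (0.26) and ALDH1A2 (0.40). ALDH1A2 also turned when scaled to the median ratio (0.0233), with the stronger part of each list (1.69), without control replicate 3 (0.08), without knockdown replicate 1 (0.12) and with a pseudocount in proportion to list length (0.0461), an alternative added after the data were seen that called 0 windows. MYOCD turned without control replicate 3 (0.0608). With each library left out in turn, MYOCD lay between -0.263 and 0.0608 and ALDH1A2 between -0.223 and 0.12. WT1 and TCF21 kept their sign wherever they could be tested, but were 0.21 and 0.25 in 1 Mb bins, where the median was 0.16, and lay between 0.518 and 1.50 and between 0.538 and 1.16 with each library left out. MYH11 and TCF21 had too few peaks for a test with the stronger part of each list, TCF21 in lists of equal length, and MYH11 and ALDH1A2 at a mean of at least 4 peaks.

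The peak ratio of the smooth muscle windows, 1.527, became 0.868 as a share of the list, 1.058 in lists of equal length and 1.856 by covered bases. With each library left out in turn it lay between 1.395 and 1.674. That of the epicardial windows, 2.625, became 10.67 (SD 18.48) with the stronger part of each list and ran from 2.1 to 4.667 with each library left out. The quotient of the ratios, 1.719, became 6.815 (SD 16.25, propagated from the quotients of single libraries) with the stronger part and ran from 1.366 to 2.788. The highest epicardial percentiles of control replicates 1 and 2 were 47.0 and 45.3, so neither had an epicardial peak in the stronger part. At that setting the epicardial control mean came from control replicate 3 alone. Regions with a peak in every knockdown library and in 0 controls numbered 4 at the smooth muscle and 3 at the epicardial genes. They became 7 and 6 when 2 of 3 libraries sufficed, 1 and 1 in lists of equal length, and 1 and 6 with the stronger part of each list. Leaving out 1 library, they ran from 4 to 8 and from 3 to 8. The share of all regions moved as well, from 7.72% to 19.2% when 2 of 3 libraries sufficed. It was 3.07% in lists of equal length, 9.92% with the stronger part, and 9.04 to 15.6% with 1 library left out. The reverse was seen for 0 regions of both sets, with 1 at the smooth muscle genes when 2 of 3 libraries sufficed and 0 to 1 with 1 library left out. The 1 shared epicardial region became 0 with the stronger part of each list, and 1 to 5 regions were shared with 1 library left out, 3 without control replicate 1 and 5 without control replicate 2. With a library left out, fewer had to hold a peak. The causes of the other shifts were not tested.

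With the replicate number as a block, 0 windows were higher and 0 lower, the peak ratios were 1.577 and 3.644 and their quotient was 2.263. The deviations of libraries with the same number correlated by -0.016, 0.034 and 0.011 over windows and tiles, so the numbers were not taken to pair the libraries, and the best correlation was with another number for some libraries. Small peak numbers and unknown depth limit every value here.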
